A study of Homo sapiens with 6 samples.

Results

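The genes described here are TNF and NF-kB response genes in HCT116, an established human colorectal carcinoma line. They comprise the tumour necrosis factor (TNF) pathway that switches on NF-kB, the NF-kB subunits themselves, and the chemokines, cytokines and other genes that NF-kB is known to induce. Of 45 genes on the list, 26 were named to a probe set in the platform annotation and were measured, out of 14884 named genes in all. Each gene was represented by its brightest probe set, taken over the mean of the 6 arrays. The choice did not use the difference between the groups. The older symbol IL8 was merged with CXCL8.

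Total RNA was measured on whole-transcript expression arrays in 2 groups of 3 arrays. The control cells were stably transduced with an empty vector. The other cells were stably transduced to overexpress miR-196b, a microRNA that the series title ties to cell migration through HOXB7 and GALNT5. Both groups were HCT116 cells grown in McCoy's 5A medium with foetal serum, with no cytokine treatment named in the labels, so levels are those of unstimulated cultures as far as the labels say. Some labels spell the line and the microRNA differently, and the title and genotype fields gave the same groups. The replicates of a group are called biological, with no word on separate transductions, so p-values cover the spread among these cultures only, which may be technical, and the number of arrays limits the precision.

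NF-kB is a family of dimeric transcription factors held in the cytoplasm by IkB proteins. TNF binding to its receptor recruits TRAF and BIRC proteins, which activate the IkB kinases CHUK and IKBKB, and the degraded IkB frees NF-kB to enter the nucleus. Many of its targets are chemokines and cytokines that call in immune cells, and others are brakes on the pathway, such as the IkB proteins and ubiquitin-editing enzymes. In colorectal cancer cells the pathway is known for links between inflammation, survival and invasion.

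The microRNA named in the labels and its closest relative are shown first because the groups are named by it. Capitals mark the seed, bases 2 to 8, through which a microRNA pairs with its targets (RefSeq, GRCh38.p14, 5′ to 3′).
hsa-miR-196b-5p: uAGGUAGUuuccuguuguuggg
hsa-miR-196a-5p: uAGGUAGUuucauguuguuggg
The sequences share the seed and differ at 1 base, C12A, counted from the 5′ end with the miR-196b base first. They are encoded at chr7:27169528-27169549 (minus strand, MIR196B) and chr12:53991762-53991783 (plus strand, MIR196A2), and miR-196a-5p also at chr17:48632532-48632553 (minus strand, MIR196A1). The probe set of the precursor gene MIR196B did not rise in the arrays labelled miR-196b (log2 change 0.08, limma adjusted p = 0.819). That of MIR196A2, a precursor of miR-196a, rose by 7.55 (adjusted p = 4.53e-07), and that of MIR196A1, its other precursor, had a change of -0.27 (adjusted p = 0.622). GALNT5 fell by 1.09 (adjusted p = 0.0233), a call that ended when any single array was left out (limma adjusted p of 0.0519 to 0.179). HOXB7 was lower by a log2 change of -0.64, which did not pass (adjusted p = 0.0974). It passed in 2 of 14 alternatives, at limma adjusted p = 0.00146 under a prior that was trended and robust and at 0.0164 once the dimmest 40% of the named probe sets had been removed. Its adjusted p over all of them ran from 0.00146 to 0.486. The array gives no level of a mature microRNA, and directions below are therefore those of arrays labelled miR-196b.

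Control replicate 1 stood apart slightly in overall level, with an array median of 4.37 against 4.34 on each of the other 5 arrays (log2) and a highest signal of 14.06 against 14.16 to 14.23. Without it 0 members passed the test in limma and 5 had an unadjusted p below 0.05, as many as with it. The 5 were not all the same genes. Without that array CXCL8 was among them (limma unadjusted p = 0.0210) and LIF was not (0.0941). Among epithelial markers, EPCAM lay between 10.8 and 11.1 and KRT19 between 9.99 and 10.2 on all arrays, while VIL1 and CEACAM5 lay below the array median. The mean log2 level of 9 measured epithelial markers ran from 6.90 to 6.94 in control arrays and from 6.75 to 6.87 in the labelled ones. Of 4 measured blood cell markers, 3 lay below the array median, with a mean of 4.44 to 4.58 in control and 4.42 to 4.72 in labelled arrays. The 3 fibroblast markers averaged 3.08 to 3.20 and 3.06 to 3.22, and the 3 endothelial markers 3.54 to 3.81 and 3.62 to 3.63. None of these 19 marker genes passed the test in limma. At an unadjusted p below 0.05 in limma were 3 of the 9 epithelial markers (33.3%), KRT18 (-0.22), KRT20 (-0.33) and CDX2 (-0.26), all lower. Of the 4 blood cell markers 1 was (25%), CSF1R (0.31), which was higher. Of all named genes 9.86% were, with 5.75% higher and 4.11% lower. The part of any such cells in the results below was not tested. In such bulk samples, fewer cells of a type and less RNA per cell cannot be told apart.

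None of the 26 measured members changed past the threshold (limma adjusted p below 0.05, over 16098 named probe sets), where 0.0605% of all named genes did. The smallest adjusted p of a member was 0.361 (IL32). Of the 26, the arrays labelled miR-196b were higher for 13 and lower for 13, and the median log2 change was 0.00485 beside 0.00758 over all named genes. The median size of the change, without sign, was 0.117 for the members and 0.0971 for all named genes. The furthest members were IL32, a cytokine, at a log2 change of -0.54 and LIF, a cytokine of the interleukin-6 family, at 0.26.

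**Figure D1:**
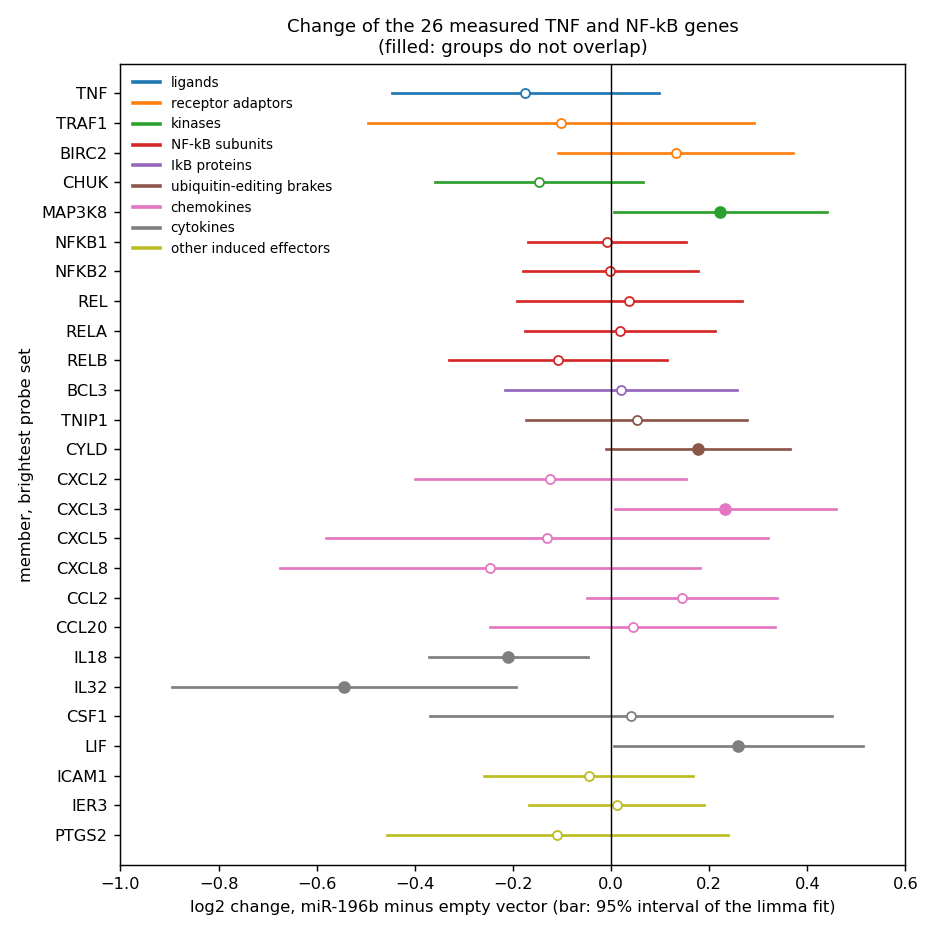
Log2 change (miR-196b minus empty vector, horizontal axis) of each measured member, in order of role, with the 95% interval of the limma fit; filled points are genes whose groups did not overlap. Of the 26 points, 10 lie within 0.1 of 0, IL32 lies furthest left at -0.54, and LIF furthest right at 0.26.

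At an unadjusted p below 0.05, limma picked 5 of the 26 (19.2%), beside 9.86% of all named genes. LIF, CXCL3 and MAP3K8 were on the higher side, where 5.75% of all named genes lay, and IL32 and IL18 on the lower side, where 4.11% lay. This count was 5 without control replicate 1, where CXCL8 took the place of LIF. It was 2 without control replicate 2, 2 without control replicate 3 and 1 without replicate 1 of the labelled arrays. Without either of the other labelled arrays it was 4, and these were not all among the 5. They included CHUK without labelled replicate 2 (limma unadjusted p = 0.0427) and CYLD without labelled replicate 3 (0.0394). The share of all named genes was not computed with an array left out. The groups did not overlap at 6 of the 26 (23.1%), beside 17.5% of all named genes. These were the same 5 genes and CYLD, with 4 higher (10.3% of all named genes) and 2 lower (7.24%). For each of the 6, an exact two-sided permutation test gives p = 0.1, the smallest that 3 against 3 arrays allow.

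**Figure D2:**
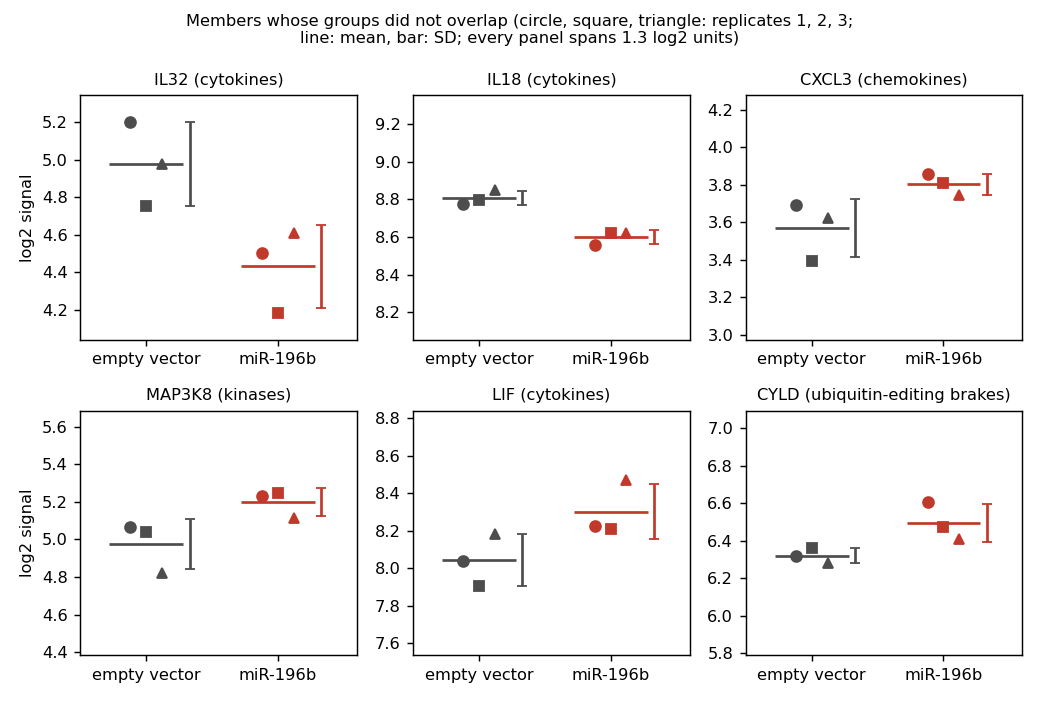
Log2 signal (vertical axis, every panel spanning 1.3 units) on the 3 empty-vector and 3 miR-196b arrays for the 6 members whose groups did not overlap; symbols are replicates 1 to 3, lines are means and bars are SD. IL32 and IL18 are lower in all 3 labelled arrays, and CXCL3, MAP3K8, LIF and CYLD higher.

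The promoters of several members are shown for the letters that match the motif NF-kB dimers are known to bind. Each line is a stretch of 80 bases that ends before the annotated start of the gene (RefSeq, GRCh38.p14, 5′ to 3′ on the strand of the gene). Capitals mark matches to the NF-kB consensus motif or to GGAATTTCC, its 9-base core in several chemokine genes.
CXCL2: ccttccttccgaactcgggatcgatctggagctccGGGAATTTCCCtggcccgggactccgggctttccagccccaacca
CXCL3: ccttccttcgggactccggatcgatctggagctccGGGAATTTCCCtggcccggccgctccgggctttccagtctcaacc
CXCL5: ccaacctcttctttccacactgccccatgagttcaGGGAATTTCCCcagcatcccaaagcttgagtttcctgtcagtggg
CXCL8: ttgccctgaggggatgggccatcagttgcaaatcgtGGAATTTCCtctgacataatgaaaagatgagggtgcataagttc
IL32: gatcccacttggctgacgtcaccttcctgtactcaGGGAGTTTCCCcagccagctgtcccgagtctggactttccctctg
MAP3K8: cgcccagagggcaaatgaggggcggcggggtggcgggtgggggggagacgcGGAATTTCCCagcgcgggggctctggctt
NFKB1: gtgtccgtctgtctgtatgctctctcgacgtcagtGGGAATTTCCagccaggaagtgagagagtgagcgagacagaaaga
REL: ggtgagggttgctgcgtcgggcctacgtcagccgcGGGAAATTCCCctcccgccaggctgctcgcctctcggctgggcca
The stretches lie at chr4:74099229-74099308 (minus strand) for CXCL2, chr4:74038724-74038803 (minus) for CXCL3 and chr4:73998724-73998803 (minus) for CXCL5. That of CXCL8 is at chr4:73740442-73740521 (plus strand) and that of IL32 at chr16:3065269-3065348 (plus). Those of MAP3K8, NFKB1 and REL are at chr10:30433941-30434020, chr4:102501275-102501354 and chr2:60881492-60881571, all on the plus strand. The match begins 78 bases before the start in CXCL2, 79 in CXCL3, 91 in CXCL5 and CXCL8, 99 in IL32, 49 in NFKB1, 47 in REL and 29 in MAP3K8.

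Promoters of 300 bases, 250 before and 50 after the start, were found for 20 of the 26 measured members. None was found for RELB, CCL2, IL18, CSF1, LIF and IER3, which these counts leave out. On either strand, 9 of the 20 held the NF-kB consensus (45%), beside 10.8% of 27305 promoters. The core GGAATTTCC, which overlaps the consensus in 6 of them, was in 8 of the 20 (40%), beside 0.472%, and the TATA box letters TATAAA in 5 (25%), beside 11.95%. The list was assembled from known NF-kB genes, so these shares describe the list and are no result of the arrays. The 9 members with a consensus match had 5 higher and 4 lower, their median log2 change being 0.02. The 11 without the consensus, among them CXCL8 and ICAM1, which held the core, had 4 higher and 7 lower, with a median of -0.05. CXCL2 and CXCL3, whose printed stretches carry the same GGGAATTTCCC, had log2 changes of -0.12 and 0.23.

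**Figure D3:**
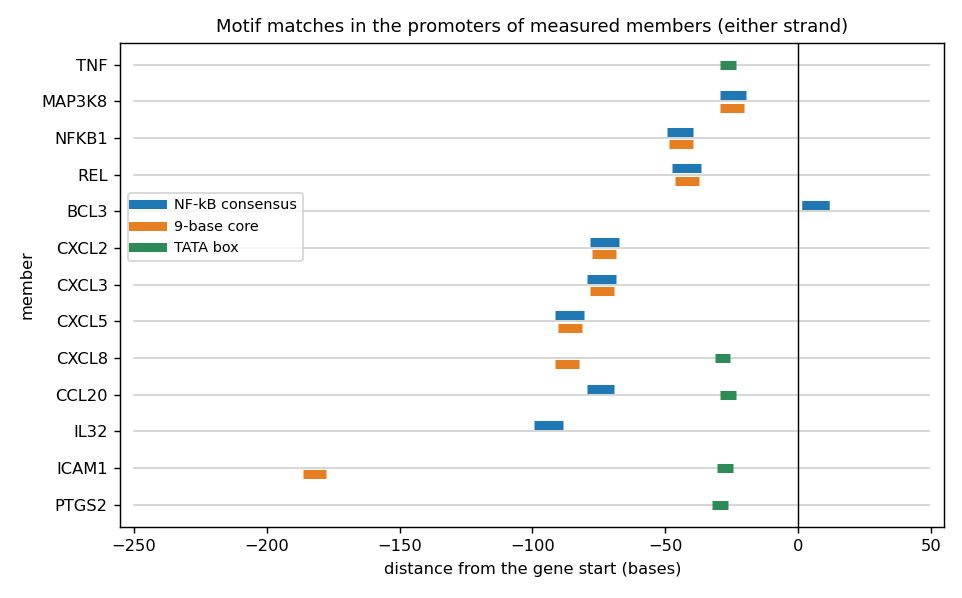
Positions of motif matches, in bases from the gene start (horizontal axis), in the promoters of the 13 measured members that held at least 1 match. Matches to the consensus or its core in the chemokine genes begin 77 to 91 bases before the start, and the TATA box of CXCL8 begins 31 bases before it.

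TNF, the ligand that gives the pathway its name, had log2 levels of 4.21, 3.93 and 4.16 in control and 3.86, 4.11 and 3.81 in the labelled arrays. The groups overlapped through labelled replicate 2, and the signal lay below the array median. The log2 change of -0.18 had an SE of 0.12 (95% interval -0.45 to 0.10, limma adjusted p = 0.644). The gene was covered by 8 probe sets with 2 distinct sets of values, and the dimmer set had a change of -0.14. LTB, the other ligand, and the receptors TNFRSF1A and TNFRSF1B were not analysed here.

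Of the proteins that dock at the TNF receptor, BIRC2, a ubiquitin ligase that builds the scaffold for the kinases, had levels of 7.13, 7.49 and 7.33 in control and 7.45, 7.49 and 7.41 in the labelled arrays. The lowest value belonged to control replicate 1 and the groups overlapped (log2 change 0.13, 95% interval -0.11 to 0.37, limma adjusted p = 0.695). The change was 0.04 without control replicate 1 and 0.22 without control replicate 2. TRAF1, an adaptor that is itself induced by NF-kB, had a change of -0.10 (-0.49 to 0.29). BIRC3 was not analysed here.

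MAP3K8, a kinase that relays TNF and Toll-like receptor signals to the MAP kinases, was at 5.06, 5.04 and 4.82 in control and 5.23, 5.25 and 5.11 in the labelled arrays. All 3 labelled arrays lay above all 3 controls, by 0.05 at the closest. The log2 change was 0.22 with an SE of 0.09 (95% interval 0.01 to 0.44), which did not pass (limma adjusted p = 0.495). CHUK, the IkB kinase subunit that also drives the alternative NF-kB route, was at 8.73, 8.79 and 8.72 in control and 8.59, 8.74 and 8.47 in the labelled arrays. Labelled replicate 2 lay among the controls (log2 change -0.15, interval -0.36 to 0.06, adjusted p = 0.622). IKBKB was not analysed here.

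The 5 NF-kB subunits, all measured, showed the smallest differences of the roles with over 2 measured genes, with a median of -0.00153 and 4 of 5 within 0.1 of no change. RELA, the subunit with the main activating domain, was at 9.47, 9.36 and 9.50 in control and 9.52, 9.51 and 9.36 in the labelled arrays. Its groups overlapped fully, with a log2 change of 0.02 (95% interval -0.18 to 0.21). NFKB1, the precursor of its usual partner p50, had a change of -0.01 (-0.17 to 0.15), and NFKB2, the precursor of p52, -0.00153 (-0.18 to 0.18). REL, the subunit best known from lymphocytes, had 0.04 (-0.19 to 0.27). RELB, the partner of p52, differed most, with 6.07, 5.83 and 6.08 in control and 5.89, 5.96 and 5.80 in the labelled arrays. Its labelled arrays lay between and just below the controls (-0.11, interval -0.33 to 0.11, limma adjusted p = 0.730). Across the 5 genes the intervals reached from -0.33 to 0.27, so a 2-fold difference in signal at any of these probe sets lies outside its own interval. Activity of NF-kB is set largely by release from IkB, which transcript levels do not measure.

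Of the 5 IkB proteins listed, BCL3 alone was measured, and NFKBIA, NFKBIB, NFKBIE and NFKBIZ were not analysed here. BCL3, a nuclear member that works with p50 and p52, was at 7.22, 7.01 and 6.98 in control and 7.23, 7.00 and 7.04 in the labelled arrays. In each group replicate 1 was the highest, and the change was 0.02 (95% interval -0.22 to 0.26).

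CYLD, a deubiquitinase that takes down the chains on which the IkB kinases assemble, was at 6.32, 6.36 and 6.28 in control and 6.61, 6.48 and 6.41 in the labelled arrays. The labelled arrays were all above the controls, with a log2 change of 0.18 and an SE of 0.08 (95% interval -0.01 to 0.36), which did not pass (limma adjusted p = 0.513, unadjusted 0.0618). TNIP1, a partner of the ubiquitin-editing enzyme TNFAIP3, had a change of 0.05 (-0.17 to 0.28). TNFAIP3 itself was not analysed here.

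Of the 6 measured chemokines, 3 were higher and 3 lower. Below the array median lay 5 of the 6, with means over the arrays from 2.04 (CCL2) to 4.02 (CXCL5). CXCL8, the neutrophil attractant interleukin-8, was at 2.77, 3.44 and 3.22 in control and 2.87, 3.11 and 2.72 in the labelled arrays. Control replicate 1 lay among the labelled arrays, and the change of -0.25 had an SE of 0.18 (95% interval -0.68 to 0.18, limma adjusted p = 0.675). The change was -0.43 without control replicate 1 (limma adjusted p = 0.580, unadjusted 0.0210) and -0.10 without control replicate 2. CXCL3, a neutrophil attractant, was at 3.69, 3.40 and 3.62 in control and 3.85, 3.81 and 3.74 in the labelled arrays. The labelled arrays were all above the controls (0.23, SE 0.10, interval 0.01 to 0.46, adjusted p = 0.494). The gene has near-identical copies in CXCL1 and CXCL2, whose transcripts its probes could share, so its value is uncertain.

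CXCL2, the chemokine above the array median, was at 5.61, 5.58 and 5.78 in control and 5.50, 5.35 and 5.75 in the labelled arrays, a change of -0.12 (95% interval -0.40 to 0.15), opposite in sign to CXCL3. It was -0.03 without labelled replicate 2 and -0.23 without labelled replicate 3. CXCL5, an epithelial neutrophil attractant, had -0.13 (-0.58 to 0.32), and without control replicate 1, at 4.56 the highest of its arrays, it had 0.11. CCL2, a monocyte attractant, had 0.14 (-0.05 to 0.34), and CCL20, which attracts cells bearing CCR6 to mucosa, 0.04 (-0.25 to 0.33).

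The cytokines held 3 of the 5 members with an unadjusted p below 0.05. IL32, a pro-inflammatory cytokine induced by TNF, was at 5.20, 4.75 and 4.98 in control and 4.50, 4.19 and 4.61 in the labelled arrays. All labelled arrays were below all controls, the closest being control replicate 2 and labelled replicate 3. The group means were 4.98 ± 0.223 for control and 4.43 ± 0.220 for miR-196b (SD, n = 3 each, log2). The log2 change of -0.54 had an SE of 0.15 and was 1.46-fold lower in signal (95% interval -0.90 to -0.19), which did not pass (limma adjusted p = 0.361, unadjusted 0.00774).

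IL18, a cytokine made by gut epithelium and stored as an inactive precursor, was at 8.78, 8.80 and 8.85 in control and 8.56, 8.62 and 8.62 in the labelled arrays. The arrays of each group lay close together and the groups were apart. The change of -0.21 had an SE of 0.07 and was 1.16-fold lower (95% interval -0.37 to -0.05, limma adjusted p = 0.427, unadjusted 0.0185). LIF was at 8.04, 7.91 and 8.18 in control and 8.23, 8.21 and 8.47 in the labelled arrays. Control replicate 3 came within 0.03 of the lowest labelled array, and the change was 0.26 with an SE of 0.11, or 1.20-fold higher (0.01 to 0.51, adjusted p = 0.4997, unadjusted 0.0464).

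CSF1, the macrophage growth factor, had a change of 0.04 (95% interval -0.37 to 0.45). Its labelled arrays spread from 5.19 to 5.91, and without labelled replicate 2, the highest, the change was -0.16. IL1A, IL1B, IL6 and CSF2 were not analysed here.

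The other induced genes differed little between the groups. PTGS2, the inducible cyclooxygenase, was at 3.87, 3.58 and 3.92 in control and 3.40, 3.75 and 3.89 in the labelled arrays, and the groups overlapped (log2 change -0.11, 95% interval -0.46 to 0.24). ICAM1, an adhesion molecule for leukocytes, had a change of -0.05 (-0.26 to 0.17). IER3, an early response gene that modulates cell survival, had 0.01 (-0.17 to 0.19) at its brightest probe set. Its 11 probe sets held 4 distinct sets of values, with changes from -0.08 to 0.03. SOD2, PLAU, PLAUR and TNFAIP2 were not analysed here.

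Array by array, the members as a list stayed close to their control means. The median deviation of the 26 from their control means was 0.02, -0.06 and 0.03 in the controls and -0.05, -0.02 and 0.04 in the labelled arrays. The groups overlapped in this measure, and the SD within a group was 0.0466. The largest deviation of IL32 was on labelled replicate 2, and that of LIF on labelled replicate 3.

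**Figure D4:**
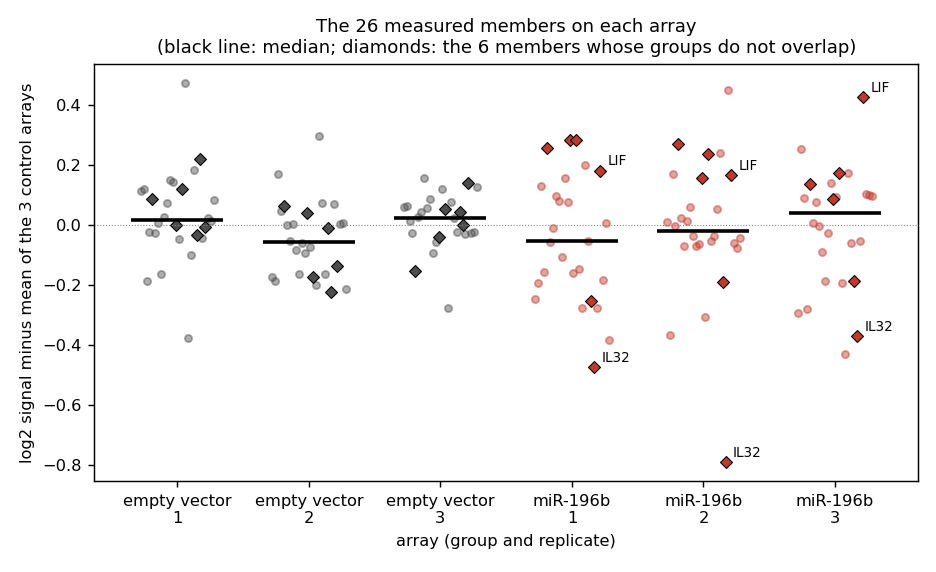
Deviation of each of the 26 members from the mean of the 3 control arrays (vertical axis, log2) on each of the 6 arrays; black lines are medians and diamonds the 6 members whose groups did not overlap. The medians run from -0.06 to 0.04 with no split between the groups, and IL32 lies low in all 3 labelled arrays.

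Other genes of the pathway were taken from a list of signalling components and a list of further NF-kB targets. Of 38 signalling components, 25 were measured, and 0 passed the test in limma; 15 were higher and 10 lower, and the median log2 change was 0.05. At an unadjusted p below 0.05 there was 1 of the 25 (4%), beside 9.86% of all named genes. It was TANK, an adaptor that links TRAF proteins to the kinase TBK1. TANK was at 6.98, 7.08 and 7.11 in control and 7.60, 7.78 and 7.80 in the labelled arrays. The groups were separate by 0.50, more than the range within either group. Its change was 0.67 with an SE of 0.08, or 1.59-fold higher (95% interval 0.47 to 0.87), which did not pass (limma adjusted p = 0.0975). It passed in 2 of 14 alternatives, when the dimmest 40% of probe sets were left out (limma adjusted p = 0.0177) and with a trended, robust prior (0.00171). Its adjusted p over all of them ran from 0.00171 to 0.486.

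The next by p among the signalling components were TRADD, the adaptor of the TNF receptor (-0.17), TAB2 (0.14) and TAB1 (0.14), which hold the kinase MAP3K7, MALT1, a protease of lymphocyte NF-kB signalling (-0.17), and MYD88, the adaptor of Toll-like receptors (0.15). Their limma adjusted p-values ran from 0.553 to 0.631. MAP3K7 itself had 0.10, and TBK1 -0.05. A dimmer probe set of TAB1 pointed the other way, so that the mean of its probe sets had a change of -0.02.

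Of 52 further targets, 34 were measured and 0 passed in limma, with 15 higher, 19 lower and a median of -0.03. At an unadjusted p below 0.05 there were 6 of the 34 (17.6%), beside 9.86% of all named genes, with 3 higher (5.75% of all named genes) and 3 lower (4.11%). STAT5A, a transcription factor of cytokine signalling, was furthest, at 4.23, 4.42 and 3.96 in control and 3.50, 3.89 and 3.42 in the labelled arrays. These groups were apart by 0.07, below the array median (-0.60, 95% interval -0.98 to -0.22, limma adjusted p = 0.360). SAA1, an acute phase protein, had -0.32 (adjusted p = 0.383), CCND1, cyclin D1, -0.17 (0.491), the chemokines CCL5 and CXCL6 0.25 (0.452) and 0.22 (0.490), and VEGFA, the vascular growth factor, 0.19 (0.504). With a trended, robust variance prior, 0 of the 26 members and 0 of the 34 further targets passed, where 0.585% of all named genes did.

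**Figure D5:**
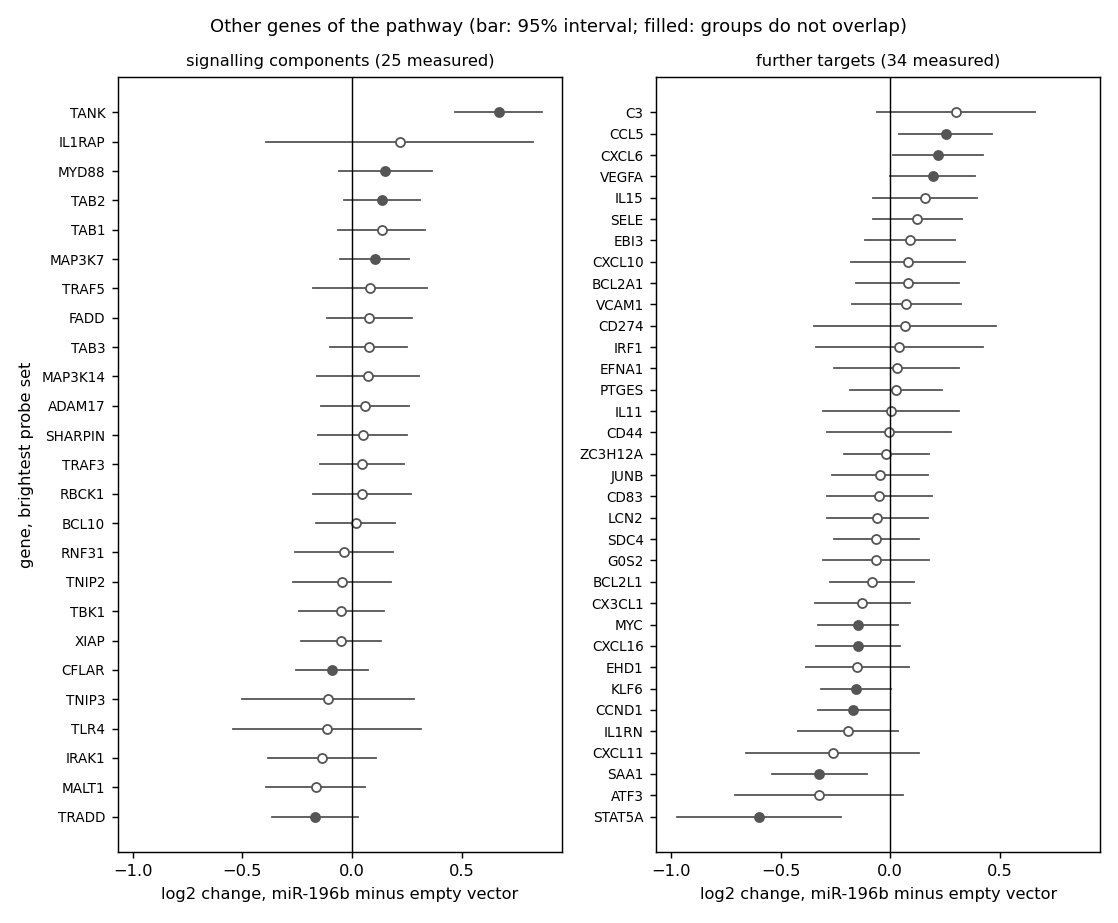
Log2 change (miR-196b minus empty vector, horizontal axis) with its 95% interval for 25 signalling components (left) and 34 further targets (right), each sorted by change; filled points are genes whose groups did not overlap. TANK at 0.67 lies apart on the left panel, and STAT5A at -0.60 is lowest on the right.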

How the data were processed

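Total RNA of 6 HCT116 cultures, 3 per group, was hybridised to whole-transcript arrays. The values deposited by the authors are log2 signals. The submitters' processing notes name RMA and Partek 6.6 without their settings; RMA normalizes between arrays, which removes overall shifts. The genome build used is not given in the sources used here. Of 53617 probe sets, 16098 had 1 gene symbol in the platform annotation, 0 had several and 37519 were unnamed here; identifiers were checked against GRCh38.p14 and changed 0 symbols.

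The deposited values of named probe sets were fitted with lmFit and eBayes in limma 3.58.1 (R 4.3.3), with no further filter, and p-values adjusted by Benjamini-Hochberg at 0.05. The fit had 4 residual and 3.23 prior degrees of freedom and was tested on simulated data. Intervals are 95%. The members and lists were chosen with earlier results of these data known. Every measured member was named. Values by array are given for members with an unadjusted p below 0.05, the largest difference in each role, TNF, RELA and CXCL8, and, beyond this rule, for CHUK, CXCL2 and the pathway genes TANK and STAT5A, chosen after their values were seen. The alternatives were a filter on dim probe sets, another variance prior, repeated quantile normalization, median centring, array weights, all probe sets, a replicate block, means over probe sets, and each array left out. No batch was labelled.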

Additional observations from a re-analysis of the deposited data

How the results depend on the processing

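The count of called members was 0 under all 14 alternatives. The median change of the members ran from -0.03 to 0.02 over them, less than the SD of 0.0466 between arrays of a group. The count at an unadjusted p below 0.05 was 3 with a trended, robust variance prior and 2 with all probe sets tested, and from 1 to 5 with an array left out. The share of all named genes at that threshold was computed in the main fit alone (9.86%). No share at that unadjusted threshold therefore stands beside these counts of any alternative. For the signalling components, 1 gene of 22, TANK, was called without the dimmest 40% of probe sets, where the share of all named genes was not computed. With a trended, robust prior TANK was again called, 1 of 25, beside 0.585% of all named genes.

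Of 355 recomputed member changes, 332 kept their direction and 23 reversed. The 12 members that reversed had main-fit changes from -0.13 (CXCL5) to 0.04 (CCL20). The dim filter, the other variance prior, the test of all probe sets and the replicate block leave a log2 change as it is. Changes under these settings count among the 332 but could not reverse. Means over probe sets altered the change in TNF and IER3 alone among the members. BCL3 reversed with repeated quantile normalization (-0.00528), IER3 with the mean of its probe sets (-0.0220), and TAB1, no member, likewise (-0.0156). With an array left out, the ranges were -0.28 to 0.0305 for TRAF1, -0.0240 to 0.0154 for NFKB1, -0.0407 to 0.0331 for NFKB2, -0.0445 to 0.117 for REL, -0.0237 to 0.0710 for RELA, -0.0475 to 0.0962 for BCL3, -0.27 to 0.11 for CXCL5, -0.0552 to 0.14 for CCL20, -0.16 to 0.20 for CSF1, -0.12 to 0.0232 for ICAM1, -0.0330 to 0.0542 for IER3 and -0.22 to 0.0276 for PTGS2, and -0.00073 to 0.14 for MIR196B. IL32, IL18, CXCL3, MAP3K8, LIF and CYLD kept their direction under every alternative that gave a value. Their groups did not overlap, so leaving out an array could not reverse them, and that part of the result was fixed in advance. Among members that did not reverse, leaving out an array moved the change by over 1.5 times in TNF (-0.27 to -0.12), BIRC2 (0.0383 to 0.22), CHUK (-0.22 to -0.0805), MAP3K8 (0.15 to 0.27), RELB (-0.19 to -0.0644), TNIP1 (0.00657 to 0.12), CXCL2 (-0.23 to -0.0328), CXCL3 (0.15 to 0.29), CXCL8 (-0.43 to -0.0991) and CCL2 (0.0949 to 0.19). The cause of the reversals was not tested. Without the dimmest probe sets 17 members were left, CXCL3 and IL32 not among them.

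Whether the replicate numbers pair the arrays was not settled. Deviations of same-numbered arrays correlated at 0.0305, 0.0369 and 0.00850, all weak and positive, beside -0.0521 to 0.0198 for arrays of different numbers. Not every array correlated best with its own number, and so few arrays cannot exclude a pairing. With the replicate block 0 members were called, 4 had an unadjusted p below 0.05, and the median change was 0.00485. Low signal limits what a difference can show, and 8 of 26 members lay below the array median. Their means over the arrays ran from 2.04 (CCL2) to 4.26 (TRAF1), beside array medians of 4.34 to 4.37.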
